A study of Rattus norvegicus with 24 samples.

Results

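The 9 genes described here, Bst2, Isg15, Ifit3, Mx1, Irf7, Irf9, Stat2, Ifitm3 and Usp18, belong to the response to type I interferon. They were taken by symbol from the 17420 genes of the deposited expression table of fetal rat brain, and all 9 were found. The symbols were listed with the group values of these same pups already known. Differences of these genes between the groups are therefore a description, and no test is given for them. RNA was sequenced from hippocampus and neocortex of 24 Sprague-Dawley rat pups on embryonic day 18, with 6 pups in each of 4 maternal treatment groups. The Poly I:C dams were injected with polyinosine:cytosine, a synthetic double-stranded RNA that mimics viral infection, at 7.5 mg/kg. The MAM dams were injected with methylazoxymethanol acetate, an alkylating agent that acts on dividing neural precursors, at 22 mg/kg. The Saline dams were the injected controls. Injections were given into the peritoneum on gestational day 17, and tissue was collected 18 hours later. The Low Protein dams ate a diet with 6.1% protein from gestational day 11 onwards, whereas the control diet held 20.3% protein. The sources used here do not state which diet the injected dams ate, or whether Low Protein dams were also injected. Each group held 3 pups from each of 2 litters, as read from the pup numbers, in which 1.2 is the second pup of litter 1. The dam was treated and the pup was measured, so that pups of a litter share their exposure. The spread between pups can therefore understate the spread between dams.

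Type I interferons bind a receptor made of Ifnar1 and Ifnar2 and activate the kinases Jak1 and Tyk2, which phosphorylate Stat2. Stat2 joins Irf9 in a complex that enters the nucleus and binds the interferon-stimulated response element, a short DNA motif found at many antiviral genes. Irf7 amplifies interferon production, Usp18 restrains signalling at the receptor and removes Isg15 from proteins, and Isg15 is a ubiquitin-like modifier. Bst2 (tetherin) holds budding virus at the cell membrane, Ifitm3 blocks viral fusion, Ifit3 acts with other Ifit proteins against viral RNA, and Mx1 is an antiviral GTPase.

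The promoters of 7 of the 9 genes were matched in a RefSeq table of rat promoters (build GRCr8), which holds 250 bases before and 50 bases after each start. Both strands were searched for the response element, written as GAAANNGAAA. It was found in 4 of these 7 promoters, those of Bst2, Ifit3, Irf7 and Ifitm3, and not in those of Mx1, Irf9 and Stat2. The element was present in 3.92% of all 33469 promoters of the table. The stretches below are shown because they carry the motif through which the pathway acts. They run 5′ to 3′ on the strand of the gene, with the match in capitals, and a match to the reverse strand reads TTTCNNTTTC. The Bst2 stretch (chr16:18255041-18255140, minus strand) holds 2 overlapping matches that start 131 and 125 bases before the gene's start. The matches of Ifit3 (chr1:241527226-241527325, plus strand) and Ifitm3 (chr1:205541759-205541858, minus strand) each start 44 bases before it. The match of Irf7 (chr1:205800038-205800137, minus strand) starts 69 bases before it.
Bst2: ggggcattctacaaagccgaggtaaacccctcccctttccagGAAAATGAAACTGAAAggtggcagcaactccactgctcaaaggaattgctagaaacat
Ifit3: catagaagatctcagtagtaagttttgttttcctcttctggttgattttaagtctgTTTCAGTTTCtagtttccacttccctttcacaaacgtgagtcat
Irf7: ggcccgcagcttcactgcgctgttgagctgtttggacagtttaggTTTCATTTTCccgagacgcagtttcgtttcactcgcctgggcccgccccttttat
Ifitm3: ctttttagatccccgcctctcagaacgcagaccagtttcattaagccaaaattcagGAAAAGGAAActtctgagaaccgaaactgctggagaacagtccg

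The deposited values are named TPM by the authors, transcript abundances scaled for length and depth, and have an offset of 0.0001 added. They sum to 70350.1 in each pup and fall with the genomic span of a gene, so that levels are not compared between genes. The number of reads per pup was estimated from the steps between low values and ranged from 25 to 65.1 M (megareads). It ranged from 29.0 to 41.8 M in Poly I:C and from 27.4 to 58.8 M in saline pups. Neuronal markers fitted the labelled tissue, with a sum over 6 genes of 345 to 435 TPM in the 24 pups. The 12275 genes whose mean over all pups reached 10 estimated reads were tested with limma. Of the 9 interferon-stimulated genes, 8 passed this filter and Ifit3 did not.

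Of the transcription factors, Irf9 was the most uniform among Poly I:C pups. Irf9 was 1.59, 1.70 and 1.78 TPM in Poly I:C litter 1 and 1.64, 1.70 and 1.66 TPM in litter 2. In saline pups it ranged from 1.07 to 1.71 TPM with a median of 1.43. All 6 Poly I:C pups lay above the saline median, but 1 of the 6 lay above the highest saline pup, so the groups overlapped. The mean log2 difference of Irf9 from saline was 0.29 (standard error 0.0877), a fold of 1.22. Irf9 ranged from 1.35 to 1.74 TPM in Low Protein and from 1.28 to 1.67 TPM in MAM pups, with medians of 1.44 and 1.41. In bulk tissue such as this, a change in the number of expressing cells and a change in RNA per cell cannot be told apart.

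Stat2, the partner of Irf9, was 1.40, 1.30 and 0.988 TPM in Poly I:C litter 1 and 1.29, 1.11 and 1.20 TPM in litter 2. The saline pups lay between 1.08 and 1.32 TPM with a median of 1.14. The Poly I:C pups spanned a wider range than the saline pups, with 1 pup above it and 1 below it. The log2 difference of Stat2 from saline was 0.03 (standard error 0.0776) in Poly I:C, -0.08 in MAM and -0.06 in Low Protein.

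Irf7 differed more between the means. Irf7 was 0.168, 0.402 and 0.108 TPM in Poly I:C litter 1 and 0.296, 0.321 and 0.225 TPM in litter 2. The saline range was 0.0883 to 0.206 TPM with a median of 0.113. The highest saline pup was exceeded by 4 Poly I:C pups, among them all 3 of litter 2. From saline, the log2 difference of Irf7 was 0.93 (standard error 0.351), a fold of 1.90. Irf7 reached 0.327 TPM in 1 Low Protein pup and 0.257 TPM in 1 MAM pup, both above every saline pup, while the medians of these groups were 0.146 and 0.132 TPM.

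Usp18, the inhibitor of the pathway, was 0.0112, 0.0302 and 0.0138 TPM in Poly I:C litter 1 and 0.0229, 0.0253 and 0.0184 TPM in litter 2. Saline pups ranged from 0.00651 to 0.0136 TPM with a median of 0.0102. Of the 6 Poly I:C pups, 5 lay above the highest saline pup, the most for any of the 9 genes. The log2 difference of Usp18 from saline was 0.94 (standard error 0.356), a fold of 1.92. The MAM pups ranged from 0.00903 to 0.0161 TPM, and 4 of these 6 also lay above the highest saline pup. The log2 difference was 0.43 in MAM and -0.02 in Low Protein. Usp18 rested on few reads, 79.5 estimated reads over the 6 saline pups and 139.5 over the 6 Poly I:C pups.

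Isg15, the modifier that Usp18 removes, was 1.42, 1.46 and 0.878 TPM in Poly I:C litter 1 and 1.25, 1.12 and 1.28 TPM in litter 2. In saline, Isg15 ranged from 0.814 to 1.35 TPM with a median of 0.861. Both groups overlapped widely, since 2 saline pups of litter 2 were at 1.35 and 1.23 TPM. Relative to saline, the log2 difference of Isg15 was 0.33 (standard error 0.168), a fold of 1.25. It was -0.02 in MAM and -0.01 in Low Protein.

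Of the membrane effectors, Bst2 had the larger difference. Bst2 was 0.520, 1.22 and 0.402 TPM in Poly I:C litter 1 and 1.04, 0.929 and 0.899 TPM in litter 2. Saline pups ranged from 0.320 to 0.583 TPM with a median of 0.380. The 3 pups of Poly I:C litter 2 and pup 1.2 lay above every pup of the other 3 groups, whereas pups 1.1 and 1.3 lay within the saline range. Low Protein pups ranged from 0.280 to 0.562 TPM and MAM pups from 0.275 to 0.471 TPM, with medians of 0.322 and 0.396. The log2 difference of Bst2 from saline was 0.97 (standard error 0.234) in Poly I:C, a fold of 1.96, and it was -0.04 in MAM and -0.14 in Low Protein. The 24 pups held at least 39.1 estimated reads of Bst2 each.

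Ifitm3, the other membrane protein, was 2.24, 2.73 and 1.37 TPM in Poly I:C litter 1 and 3.02, 3.16 and 2.38 TPM in litter 2. Saline pups ranged from 1.73 to 3.15 TPM with a median of 2.44. The Poly I:C pups covered the saline range on both sides. The log2 difference of Ifitm3 from saline was -0.02 (standard error 0.208) in Poly I:C, 0.04 in MAM and -0.16 in Low Protein. Its promoter holds the same element as that of Bst2, as shown above.

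The cytosolic effectors were near the limit of detection. Ifit3 was at the offset in 1 saline, 1 Low Protein and 1 MAM pup, and no fold is given because it would depend on that offset. Ifit3 was 0.0112, 0.0229 and 0.00547 TPM in Poly I:C litter 1 and 0.0276, 0.0188 and 0.0337 TPM in litter 2, and 3 of these pups lay above the highest saline pup at 0.0225 TPM. Summed over 6 pups it had 26 estimated reads in Poly I:C, 13 in MAM, 26 in Low Protein and 17 in saline. These correspond to 1.28, 0.472, 0.980 and 0.734 reads per 10 M, with exact 95% Poisson intervals of 0.835 to 1.87, 0.251 to 0.806, 0.640 to 1.44 and 0.428 to 1.18. The intervals treat rounded estimates as counts and cover counting error only, and those of Poly I:C and saline overlapped.

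Mx1 was 0.00905, 0.0376 and 0.00766 TPM in Poly I:C litter 1 and 0.00984, 0.00846 and 0.0150 TPM in litter 2. Saline pups ranged from 0.00366 to 0.0110 TPM with a median of 0.00827. Pup 1.2 alone was far above the rest, and 1 further Poly I:C pup exceeded the highest saline pup. Mx1 had a log2 difference from saline of 0.84 (standard error 0.467) in Poly I:C, -0.58 in MAM and 0.20 in Low Protein. Without pup 1.2 the difference in Poly I:C was 0.52, and the MAM value was -0.12 without MAM pup 2.2, whose Mx1 rested on about 1 read. Genes of the Mx, Ifit, Ifitm and Oas families have close copies between which the quantification can divide reads, so that their values are less certain than those of Bst2, Irf7, Irf9, Stat2 and Isg15.

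**Figure D1:**
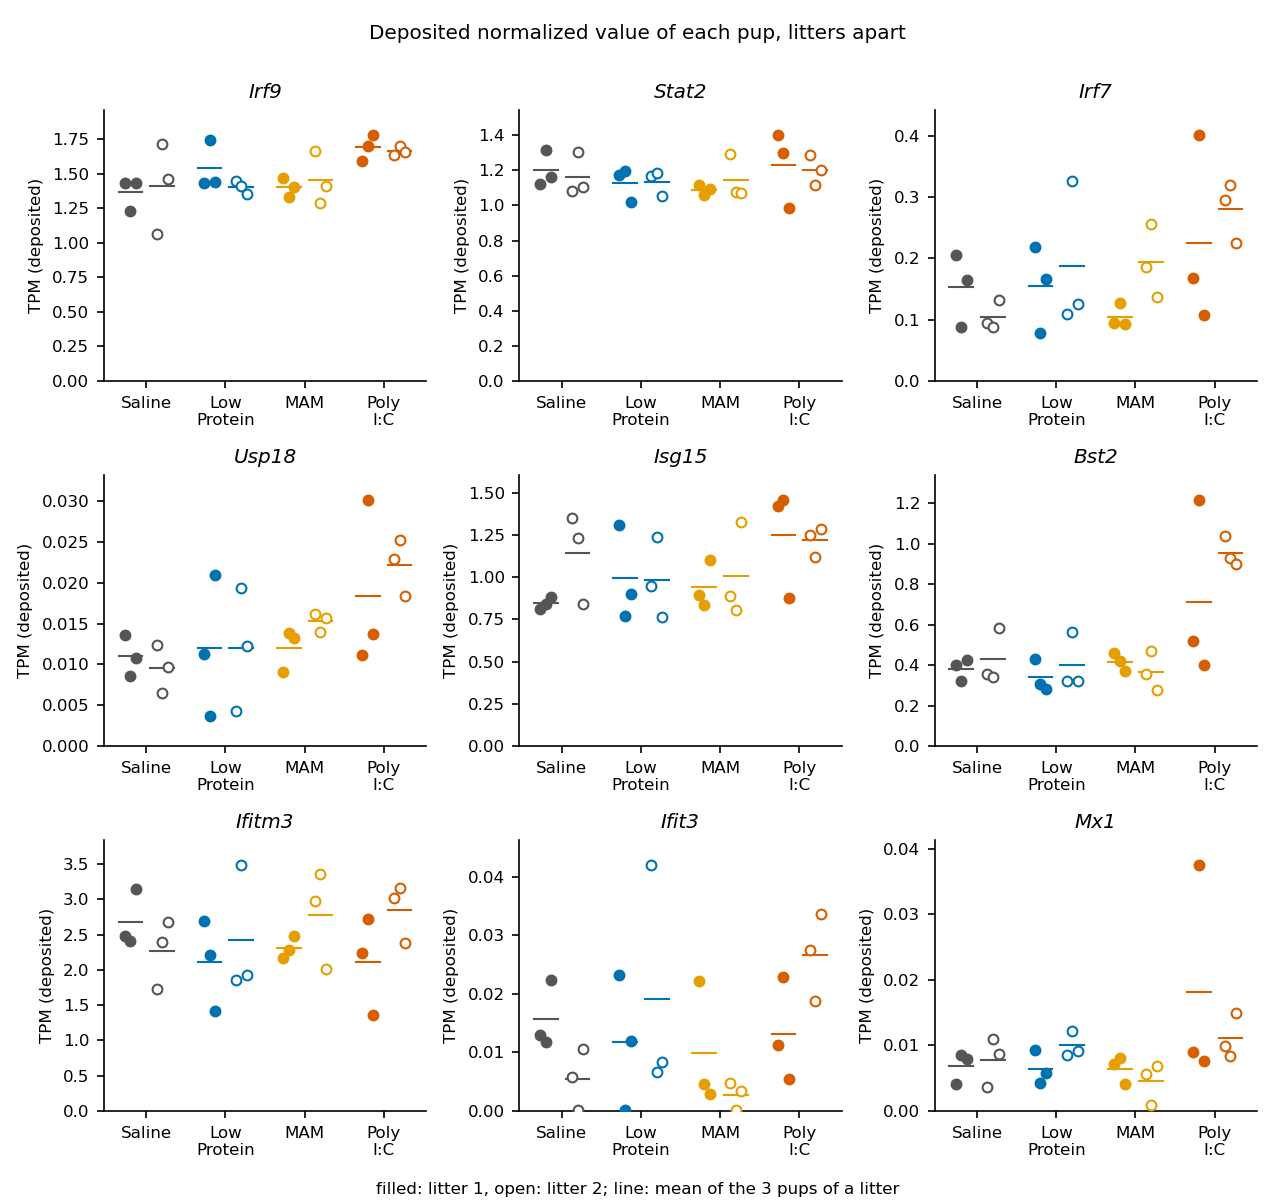
Deposited TPM of each of the 24 pups (y axis, from 0) for the 9 interferon-stimulated genes, by maternal treatment group (x axis), with filled points for litter 1, open points for litter 2 and a line at each litter mean of 3 pups. Bst2 reaches 0.899 to 1.22 TPM in 4 Poly I:C pups against at most 0.583 TPM in saline, whereas Stat2 and Ifitm3 cover the saline range.

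Set side by side, the 3 comparisons with saline share the same 6 control pups. The difference from saline was above 0 for 8 of the 9 genes in Poly I:C, for 4 in MAM and for 4 in Low Protein. Over the 12275 genes tested, it was above 0 for 51.1% of genes in Poly I:C, 28.1% in MAM and 45.0% in Low Protein. The median log2 difference of the 9 genes was 0.84 in Poly I:C, -0.02 in MAM and -0.01 in Low Protein. These medians count Ifit3, which did not pass the filter and depends on the offset. Without Ifit3, the middle of the 8 other genes in Poly I:C falls between Isg15 at 0.33 and Mx1 at 0.84. The median over all genes tested was 0.00, -0.07 and -0.01, respectively. For none of the 8 genes that passed the filter were all 6 Poly I:C pups above all 6 saline pups, which held for 0.155% of all genes tested. The median of the 9 genes in Poly I:C was 0.52 without pup 1.2, which had the highest value of all 24 pups for 5 of them, and 0.98 without pup 1.3. A larger pseudocount shrinks the differences of these low genes, and the median was 0.42 on the log2(value + 0.01) scale.

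Against MAM pups, the comparison in which no saline pup enters, the log2 difference in Poly I:C was 1.01 for Bst2, 1.42 for Mx1, 0.73 for Irf7, 0.51 for Usp18, 0.35 for Isg15, 0.24 for Irf9, 0.11 for Stat2 and -0.06 for Ifitm3. The 2 groups overlapped for each of the 8 genes that passed the filter. All 6 Poly I:C pups were above all 6 MAM pups for 2.91% of the genes tested. In the order of the 4 group means on the log2 scale, Poly I:C came first for every gene but Ifitm3, for which MAM came first. The share of all genes tested with Poly I:C first was not counted. Poly I:C was above MAM for 65.0% of the genes tested, and for Stat2 its step to the next group was only 0.03. The step from Poly I:C to the next group was larger than the pooled SD between pups for Bst2 (0.97 against 0.42), Isg15 (0.33 against 0.30) and Irf9 (0.20 against 0.15). No other step between neighbouring groups exceeded that spread for any of the 9 genes. The spread is that of single pups over all groups, and for Usp18 its value rests largely on Low Protein pups (SD of 1.06 on the log2 scale, against 0.39 in saline and 0.30 in MAM).

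**Figure D2:**
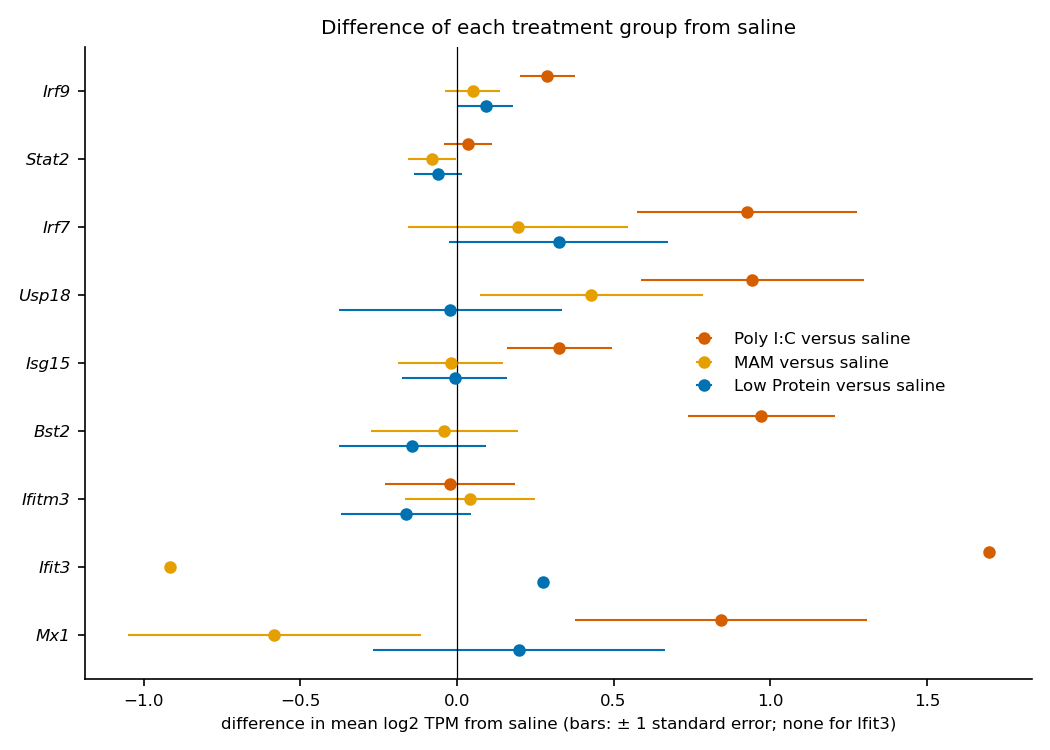
Difference in mean log2 TPM from saline (x axis) for the 9 genes (y axis) in Poly I:C, MAM and Low Protein pups, with bars of 1 standard error from the limma fit of 24 pups and none for Ifit3, which is at the offset in 3 pups. Bst2, Irf7, Usp18 and Mx1 lie between 0.84 and 0.97 in Poly I:C, and Stat2 and Ifitm3 lie between -0.16 and 0.04 in all 3 groups.

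The litters were then shown apart. The mean log2 values of both Poly I:C litters were above those of all 6 other litters for 7 of the 9 genes, the exceptions being Ifit3 and Ifitm3. The same held for 4.73% of the genes tested and for 9 (14.1%) of the 64 other genes of the interferon pathway that were tested. For Stat2 the margin was below 0.01 on the log2 scale. The margin of Irf7 was also narrow, with a mean log2 value of -2.37 in Poly I:C litter 1 and -2.41 in MAM litter 2. Bst2 differed from the saline mean by 0.68 in Poly I:C litter 1 and by 1.27 in litter 2, while the saline litters lay 0.13 apart. The differences were 0.67 and 1.18 for Irf7 and 0.74 and 1.14 for Usp18, where the saline litters lay 0.48 and 0.23 apart. These 3 genes had larger values in litter 2. Mx1 had the opposite order, with 1.02 in litter 1 and 0.67 in litter 2. For Irf9 both litters were nearly equal at 0.30 and 0.28, and the saline litters lay 0.03 apart. For Isg15 both litters were at 0.33 and 0.32, less than the distance of 0.40 between the saline litters. Ifitm3 was the lowest of all 8 litters in Poly I:C litter 1 and the highest in litter 2. With 2 litters per group, litter and treatment can be compared over 2 against 2 litters only.

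**Figure D3:**
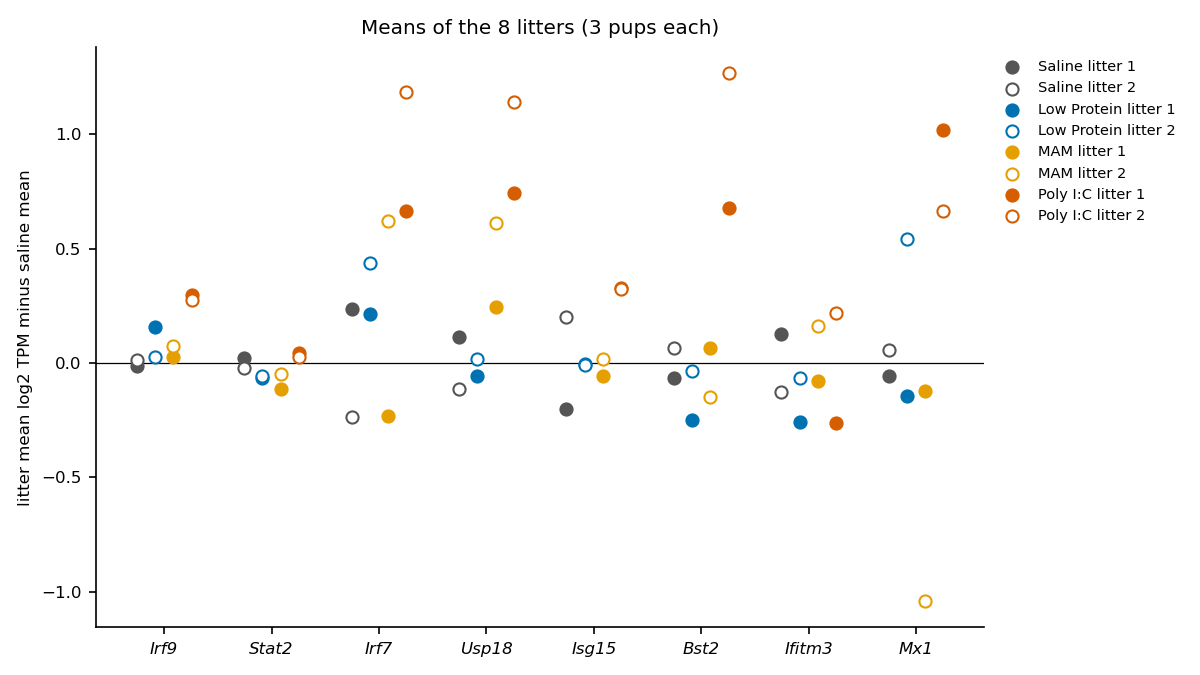
Mean log2 TPM of each litter of 3 pups minus the mean of the saline pups (y axis) for 8 of the genes (x axis), with filled points for litter 1 and open points for litter 2. Both Poly I:C litters lie above the 6 others for each gene shown but Ifitm3, for which they are the lowest and the highest litter.

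Within the Poly I:C group, pup 1.2 ranked high and pup 1.3 ranked low for most genes. Pup 1.2 had the highest value of all 24 pups for Bst2, Isg15, Mx1, Irf7 and Usp18. Pup 1.3 was the lowest of the 6 Poly I:C pups for 7 genes, Bst2, Isg15, Ifit3, Mx1, Irf7, Stat2 and Ifitm3, but the highest of all 24 for Irf9. Pup 1.1 was the highest of the 6 for Stat2 and the lowest for Irf9 and Usp18. The mean log2 value over the 8 filtered genes, relative to saline, was 0.29, 1.075 and -0.05 in the pups of litter 1 and 0.68, 0.64 and 0.60 in those of litter 2. The range of this score was -0.20 to 0.14 for saline, -0.14 to 0.18 for MAM and -0.40 to 0.58 for Low Protein pups. One Poly I:C pup therefore lay within the saline range, and the highest Low Protein pup lay just under the lowest pup of Poly I:C litter 2.

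Markers of other cell types differed between these pups as well. The summed level of 5 choroid plexus markers was 32.9 TPM in Poly I:C pup 1.3, the lowest of all 24 pups, and averaged 109 TPM in Poly I:C litter 1 and 216 TPM in litter 2. The sum of 10 microglia markers was 12.7 TPM in pup 1.3 and averaged 14.9 TPM in litter 1 and 18.3 TPM in litter 2. Endothelial markers averaged 48.95 and 66.2 TPM and meningeal markers 7.91 and 12.5 TPM in these litters. All 4 sums were thus higher in the litter with the larger Bst2, Irf7 and Usp18 values, and their part in those values was not tested. Pup 1.2, with the highest Bst2, had 16.5 TPM of microglia, 50.1 TPM of endothelial and 154 TPM of choroid plexus markers. Across groups, the microglia sum spanned 13.0 to 16.5 TPM in saline, 12.7 to 19.0 TPM in Poly I:C, 16.2 to 20.8 TPM in MAM and 10.6 to 26.4 TPM in Low Protein pups. It exceeded the highest saline pup in 4 Poly I:C, 5 MAM and 3 Low Protein pups. None of the 10 microglia genes passed the unadjusted limma threshold between Poly I:C and saline, and no marker of these lists was at the offset in all pups. The Low Protein pup with the highest Irf7, pup 2.2, also had the highest microglia sum of all pups, 26.4 TPM, and the highest meningeal sum, 31.3 TPM.

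The pathway around these genes was described with a list of 95 other genes grouped by role, of which 80 were in the table and 64 passed the filter. Of the ligands, 6 genes were in the table and none passed the filter. Ifnb1 and Ifna2, which encode type I interferons, were at the offset in all 24 pups. Ifna1 and Ifna4 were above the offset in 1 pup each, neither of them a Poly I:C pup. Ifng, which encodes interferon gamma, was above it in 1 saline and 1 Low Protein pup, and Ifnk in 2 MAM pups and 1 Poly I:C pup, each time with at most a few reads. Transcripts of these ligands were therefore not detectable at this depth in nearly all pups on embryonic day 18. In the Poly I:C, MAM and Saline groups this was 18 hours after injection.

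Of the 64 pathway genes tested between Poly I:C and saline, 7 (10.9%) were higher and 2 (3.12%) lower at an unadjusted p under 0.05 in limma. Over all genes tested the shares were 3.96% higher and 5.58% lower. Shares of the pathway list, here and below, are a description, since the list was chosen with earlier results of these data known. None of the 64 genes, and 0 of all genes tested, passed after Benjamini-Hochberg adjustment. The difference was above 0 for 46 of the 64 genes, and their median was 0.17 against 0.00 over all genes. Without Poly I:C pup 1.3, 21 of the 64 genes passed the unadjusted threshold, 19 of them higher, beside 12.1% of all genes tested. Without Poly I:C litter 1 it was 24, of which 21 were higher, beside 18.7% of all genes, most of those lower. In that fit 260 genes also passed after adjustment, among them Ifi27 and Tor3a of the pathway list, whereas 0 pathway genes did so in the other alternatives. Without Poly I:C litter 2 the count was 4, of which 2 were higher, beside 4.58% of all genes. Without saline litter 2 it was also 4, of which 3 were higher, beside 5.21%. Leaving out saline pup 2.1 gave 5, of which 3 were higher, beside 6.76%.

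By role, the 5 receptor genes had a median log2 difference of -0.04 and held 1 gene that passed. Ifngr2, a subunit of the interferon gamma receptor, had a median of 1.52 TPM in Poly I:C (range 1.22 to 1.61) and 1.72 TPM in saline (1.58 to 1.86), a log2 difference of -0.22 (standard error 0.0655, limma adjusted p = 0.342). Ifnar1, the type I interferon receptor chain in the table, had a difference of -0.04 (standard error 0.0523). The 14 kinases, transcription factors and inhibitors had a median of 0.08, and Irf2, a transcription factor, passed the unadjusted threshold at 0.26. The 3 genes of ISG15 conjugation, Uba7, Ube2l6 and Trim25, lay between 0.12 and 0.19, and none passed. Genes induced mainly by interferon gamma, 5 in number, had a median of 0.29, and none passed.

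The 37 antiviral effectors held most of the genes that passed, with 5 higher and 1 lower and a median of 0.30. Rtp4, a chaperone of membrane receptors that is induced by interferon, was 0.0121, 0.117 and 0.0257 TPM in Poly I:C litter 1 and 0.0613, 0.0407 and 0.0334 TPM in litter 2. The 6 saline pups ranged from 0.00500 to 0.0292 TPM. Rtp4 was thus highest in pup 1.2, as Bst2 was, and 4 Poly I:C pups lay above all saline pups. Its log2 difference was 1.29 (standard error 0.457, limma adjusted p = 0.384), and it no longer passed the unadjusted threshold without Poly I:C litter 2. Ifi44, an interferon-induced cytosolic protein, had a median of 0.126 TPM in Poly I:C against 0.0879 TPM in saline, and 5 of 6 Poly I:C pups lay above the highest saline pup. Its difference was 0.52 (standard error 0.230, limma adjusted p = 0.476), and the unadjusted call was lost when any of Poly I:C pups 1.2, 2.1, 2.2 and 2.3 or saline pup 2.1 was left out. Trim34, of the tripartite motif family, differed by 0.45 (standard error 0.210, limma adjusted p = 0.510) with 3 pups above the saline range, and this call was lost in 11 of the 32 fits that left out a pup or litter. Samhd1, which breaks down nucleotides that viruses need, differed by 0.36 and Slfn2 by 0.30. Tor3a, the only effector that passed in the other direction, was at 0.0707 to 0.139 TPM in Poly I:C and 0.113 to 0.150 TPM in saline, a difference of -0.39 (standard error 0.133, limma adjusted p = 0.384). Tor3a was lower in litter 2, where its mean was 0.0820 TPM, than in litter 1 at 0.116 TPM.

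Oas1a, which makes the messenger that activates RNase L, had a difference of 0.96 (standard error 0.474) and did not pass. Oas2, of the same family, was below the filter with 52.9 estimated reads over the Poly I:C pups against 25.2 in saline, 22.7 in MAM and 21.4 in Low Protein. Other textbook genes of the response had smaller differences, -0.02 for Ifit2 (standard error 0.174), 0.31 for Rsad2 (standard error 0.310) and -0.08 for Adar (standard error 0.115). The chemokine Cxcl10 was below the filter at 40.8 estimated reads in Poly I:C, 27.9 in saline, 28.9 in MAM and 43.8 in Low Protein. The chemokines Cxcl9 and Cxcl11, also below it, had 9.96 and 2.99 estimated reads in Poly I:C against 10.97 and 5.98 in saline.

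**Figure D4:**
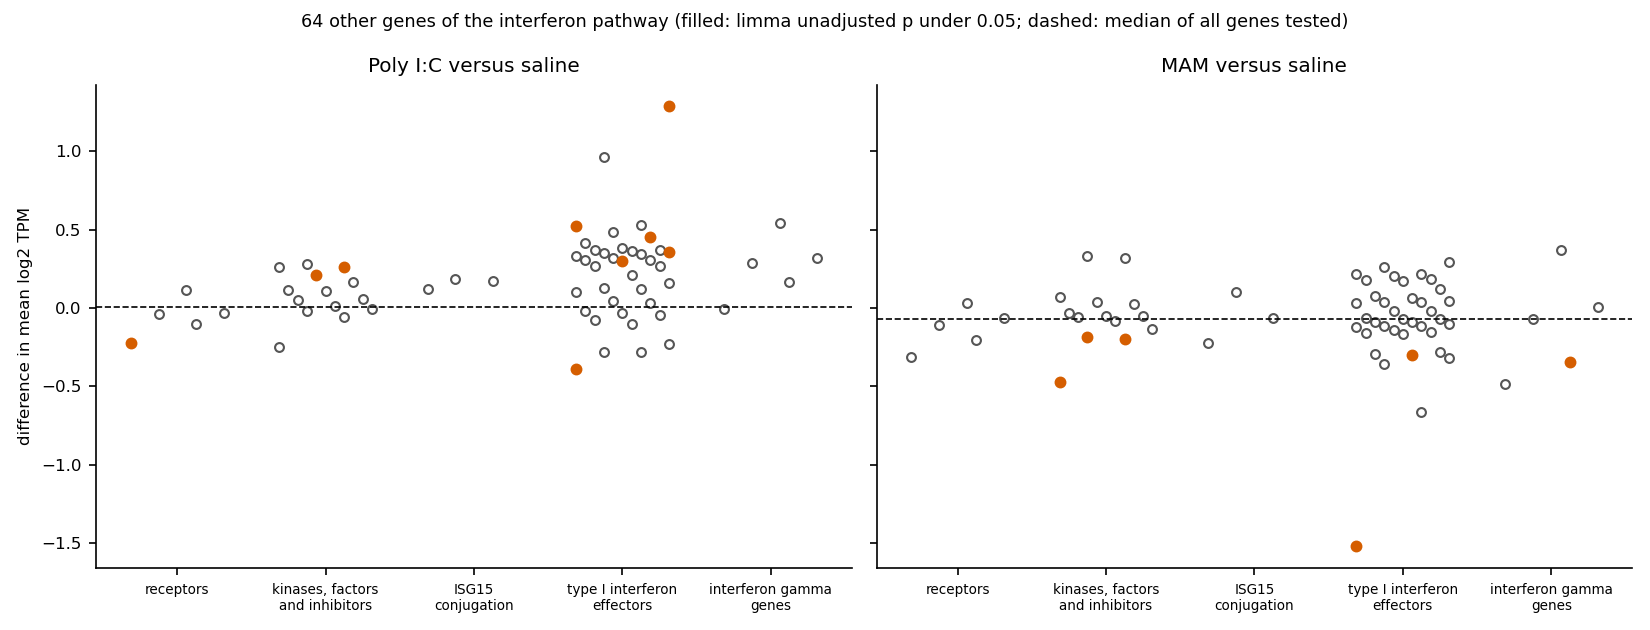
Difference in mean log2 TPM (y axis) from saline for the 64 other pathway genes that passed the filter, by role (x axis), in Poly I:C (left) and MAM pups (right), with filled points for genes at an unadjusted limma p under 0.05 and a dashed line at the median of all genes tested. In Poly I:C 7 genes pass above and 2 below 0, and in MAM 6 genes pass, all below 0.

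In MAM pups, 0 of the 64 genes were higher and 6 lower than in saline at an unadjusted p under 0.05 in limma, or 9.38%, beside 2.07% higher and 8.02% lower over all genes tested. After adjustment 0 of the 64 genes and 0.0163% of all genes passed. The directions depended on the scaling of the pups, since the median of all genes was -0.07 in MAM. With median-of-ratios scaling, 3 pathway genes were higher and 4 lower, and with upper quartile scaling 2 were higher and 4 lower. Mx2, a relative of Mx1, had a median of 0.0311 TPM in MAM and 0.0911 TPM in saline, a difference of -1.52 (standard error 0.728, limma adjusted p = 0.492), but MAM pups ranged from 0.0107 to 0.0800 TPM and saline pups from 0.0156 to 0.147 TPM, and the unadjusted call held in 18 of 41 alternatives. Irf8, a transcription factor of microglia and other myeloid cells, differed by -0.47 (standard error 0.199, limma adjusted p = 0.492), and this call was lost in 9 of the 32 fits that left out a pup or litter, among them each fit without a MAM or saline litter. The microglia sum ranged from 16.2 to 20.8 TPM in MAM and from 13.0 to 16.5 TPM in saline. Igtp, a GTPase induced by interferon gamma, differed by -0.35 (standard error 0.157, limma adjusted p = 0.492) and no longer passed under either scaling. Without saline pup 1.2 the number of pathway genes that passed in MAM was 3, beside 7.78% of all genes tested. Without saline litter 1 it was 2, beside 423 of the 12275 genes. In a fit of the 12 pups alone it was 11, beside 13.8% of all genes.

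In Low Protein pups, 1 pathway gene was higher and 2 lower than in saline (1.56% and 3.12%), beside 2.65% and 4.63% of all genes tested, and 0 genes passed after limma adjustment in the list or overall. Samhd1 was 0.102 to 0.136 TPM in Low Protein and 0.0716 to 0.119 TPM in saline, a difference of 0.31 (standard error 0.112, limma adjusted p = 0.666). Samhd1 was thus higher in both Low Protein and Poly I:C pups, against the same saline pups. Ifngr2 differed by -0.19 in Low Protein (standard error 0.0655, limma adjusted p = 0.646), also against the same controls, and kept its unadjusted call in all 42 alternatives in both comparisons. Helz2, a helicase that acts as a nuclear co-activator, differed by -0.43 (standard error 0.175, limma adjusted p = 0.668), and this call was lost without Low Protein pup 1.2 or 2.1, saline pup 2.1, Low Protein litter 1 or saline litter 2. The count of 3 genes fell to 2 without Low Protein pup 1.2 or saline pup 2.1, beside 7.92% and 4.91% of all genes. It rose to 6 without Low Protein pup 1.3, beside 7.4%. Leaving out Low Protein pup 2.2 or 2.3, saline pup 1.3 or 2.2, or Poly I:C pup 1.3 gave 5, beside 6.89% to 8.11%. With a litter left out the count ranged from 2 to 8, beside 515 to 1146 of the 12275 genes.

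Between Poly I:C and MAM pups, 14 pathway genes were higher in Poly I:C and 1 lower (21.9% and 1.56%) at an unadjusted p under 0.05. Over all genes tested the shares were 15.0% and 3.71%, so that many genes outside the pathway were called higher in Poly I:C as well. The median difference was 0.20 in the list and 0.06 over all genes, and 53 of 64 genes were above 0, beside 65.0% of all genes. After limma adjustment 0 pathway genes and 0.937% of all genes passed. At least 1 pathway gene passed in 13 of 42 alternatives, among them Igtp in 12, Oasl2 and Slfn2 beside it without Poly I:C pup 1.3, Ifi47 beside it without Low Protein litter 1, and Ifi44 beside it in a fit of the 12 pups alone. Parp14 passed with the replicate block. With median-of-ratios or upper quartile scaling 12 pathway genes were higher and 3 lower. Of all genes tested, 8.67% were then higher and 8.30% lower with the former and 9.06% and 8.34% with the latter, so that the excess of higher genes outside the pathway depended on the scaling. Oasl2, a relative of the oligoadenylate synthetases, was at 0.0225 to 0.179 TPM in Poly I:C and 0.0176 to 0.0633 TPM in MAM, a difference of 1.15 (standard error 0.367, limma adjusted p = 0.104). Ifi47, an interferon-induced GTPase, was at 0.150 to 0.325 TPM in Poly I:C and 0.100 to 0.149 TPM in MAM, with no overlap, a difference of 0.77 (standard error 0.207, limma adjusted p = 0.0672). Ptpn2, a phosphatase that limits Jak and Stat signalling, was the other gene without overlap, so that 2 of the 64 (3.12%) had none, beside 2.91% of all genes tested. The lower gene was Ifitm1, related to Ifitm3, with a difference of -0.44 (standard error 0.199, limma adjusted p = 0.231), and it was 0.668 to 0.824 TPM in Poly I:C litter 1 but 1.16 to 1.45 TPM in litter 2. Without Poly I:C litter 1 its difference was 0.01. The count of 15 genes was 25 without Poly I:C pup 1.3, beside 20.6% of all genes. With a litter left out, 1376 to 2615 of the 12275 genes passed, and the pathway count was also 25 without Poly I:C litter 1. Without MAM litter 1, MAM litter 2 or Poly I:C litter 2 the pathway count was 8, 7 and 9, beside 1376, 1511 and 2615 genes.

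The genes whose pattern over the 24 pups was most like the mean of the 8 filtered interferon-stimulated genes were ranked by Pearson's r among 12267 other genes. The pups share 8 litters and 4 treatments, so that the r values are a description. The first 10 were Ifi44 (r = 0.83), Oas1a (0.81), Slfn4 (0.79), Tmem129 (0.76), Lgals3bp (0.74), Slfn2 (0.73), Zc3hav1 (0.71), Cd34 (0.71), Ifi27 (0.70) and RGD1308601 (0.70). Of these, 6 were on the pathway list, Ifi44, Oas1a, Lgals3bp, Slfn2, Zc3hav1 and Ifi27. The list held 64 of the 12267 genes ranked. This count is a description too, since the genes of the score and the list were chosen with earlier results of these data known. Without the 2 pups farthest from the median, Poly I:C 1.2 and 2.1, r was 0.83 for Ifi44, 0.75 for Oas1a and 0.62 for Slfn4. Slfn4, of the Schlafen family, was 0.0427 ± 0.0293 TPM (SD, n = 6) in Poly I:C and 0.0120 ± 0.00558 TPM in saline. Tmem129, which encodes a membrane-bound ubiquitin ligase, was 3.06 ± 0.0857 TPM in Poly I:C and 2.52 ± 0.240 TPM in saline. Cd34, a surface protein of endothelial and blood progenitor cells, was 0.352 ± 0.0758 TPM and 0.264 ± 0.0190 TPM, respectively.

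The response element was also counted beyond the 9 genes. It was present in 23 of the 54 pathway genes tested that had a promoter entry (42.6%), and in 2.76% of the 9551 promoters of tested genes. The median log2 difference between Poly I:C and saline was 0.31 for the 23 pathway genes with the element and 0.12 for the 31 without it. The next medians cover the tested genes with a promoter entry, pathway genes included and the 9 genes left out. They were 0.04 for the 261 genes with the element and 0.00 for the 9284 without it. In MAM pups the medians of the pathway genes with and without the element were -0.02 and -0.08, and in Low Protein pups both were 0.02. At an unadjusted p under 0.05 in limma, 2 of the 23 genes with the element (8.70%) and 2 of the 31 without it (6.45%) were higher in Poly I:C than in saline. Against MAM these were 5 (21.7%) and 7 (22.6%), nearly equal shares. A second motif, the gamma-activated site written as TTCNNNGAA, was found in 3 of the 7 promoters, those of Bst2, Irf9 and Ifitm3, and in 8.87% of all promoters.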

How the data were processed

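RNA from 24 pups was prepared with a stranded mRNA kit and sequenced as paired reads by the authors. They trimmed reads, aligned them to rn6 with STAR (version 2.4.1d per the submitters' processing notes) and assigned them to RefSeq transcripts by the E/M method of Partek. The values deposited by the authors are TPM with an offset of 0.0001, and each pup sums to 70350.1. They contain no counts, so reads were estimated as the value less the offset, times the genomic span in GRCr8, divided by the step that 1 read is worth. Estimates of low genes were whole, within 0.05, for 49.1% to 54.3% of values per pup, where chance gives 10%, so counts are approximate and groups were compared with no count model, apart from the Poisson intervals of Ifit3 on rounded estimates. Depth was 25.0 to 65.1 M per pup.

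The log2 of the deposited values was compared with limma (version 3.58.1, R 4.3.3) in 1 model of the 24 pups with group as the only term. Tested were 12275 genes whose mean over all pups reached 10 estimated reads, with Benjamini-Hochberg adjustment across them. Folds and standard errors come from that fit. The unadjusted threshold of 0.05 is that of the study, whose added minimum of the fold change for Poly I:C and Low Protein was not applied. Its limit on low values (a mean above 1 in each group, 5086 genes) was an alternative because it keeps 3 of the 9 genes. The code was tested on simulated data.

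The 9 genes, the pathway list and the marker lists were chosen with earlier results of these data known. All 9 genes were named, together with up to 3 pathway genes per direction and comparison at an unadjusted p under 0.05 by size of difference, and the 10 genes most like the 9. Oas1a, Oas2, Ifit2, Rsad2, Adar, Cxcl9, Cxcl10, Cxcl11, Ifi27, Parp14, Ptpn2 and the ligands were named after their values were seen. So were the smaller genes by role and Low Protein pup 2.2. The counts cover the whole pathway list, and the result of a single gene in it is not reported here. Promoters came from RefSeq (GRCr8). Isg15 and Usp18 were not matched. Alternatives covered the filter, pseudocount, scaling, pups in the fit, a variance trend, litter means, a replicate block, and leaving out each pup or litter. Among 276 pairs of pups, at most 2 genes had equal values above the offset.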

Additional observations from a re-analysis of the deposited data

Results flagged for a closer look

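In 4 cases 1 pup of a group of 6 lay far from the other 5, by Dixon's criterion at 95%, which chance meets in about 1 of 20 groups, and 36 groups of the 9 genes were examined. Mx1 was 0.0376 TPM in Poly I:C pup 1.2, and the next pup was at 0.0150 TPM. Ifit3 was 0.0222 TPM in MAM pup 1.1, where the next pup was at 0.00474 TPM, and that value rests on 8.99 estimated reads. Irf9 was 1.74 TPM in Low Protein pup 1.2 and 1.44 TPM in the next pup. Stat2 was 1.29 TPM in MAM pup 2.1 and 1.12 TPM in the next pup.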

How the results depend on the processing

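Of the 9 genes, Bst2, Isg15, Irf7, Irf9, Mx1, Usp18 and Ifit3 kept a positive log2 difference between Poly I:C and saline in all 42 alternatives, Stat2 in 41, and the negative difference of Ifitm3 was kept in 37. The median difference of the 9 genes between Poly I:C and saline, with Ifit3 counted, was 0.84. It became 0.42 with a pseudocount of 0.01 and 0.0202 with a pseudocount of 1, which exceeds most of these values. That between Poly I:C and MAM, 0.51, became 0.34 and 0.0630. With a pup or litter left out, these medians ranged from 0.52 to 0.98 and from 0.31 to 0.71.

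The limit of the study on low values, a mean above 1 in each group, left 5086 genes and 10 pathway genes. Unadjusted calls were then 506 in Poly I:C, 572 in MAM and 419 in Low Protein against saline and 1176 between Poly I:C and MAM (1171, 1238, 893 and 2299 with the filter used), with 2, 0, 1 and 1 pathway genes (9, 6, 3 and 15). On litter means, 766, 670 and 1434 genes passed in Poly I:C, MAM and Poly I:C against MAM (6.24%, 5.46% and 11.7% of all genes). Pathway genes that passed there numbered 12, 6 and 18, respectively. In Low Protein, 8 pathway genes passed on litter means, beside 5.15% of all genes. A fit of the 12 pups compared gave 11 pathway genes in MAM, beside 13.8% of all genes. Median-of-ratios scaling gave 5 in Low Protein, beside 7.98%. The cause of these differences was not tested, apart from the smaller number of genes under the limit.

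Scaling also moved the directions. Higher genes made up 20.5% of the calls in MAM against saline, 63.0% with median-of-ratios and 45.4% with upper quartile scaling. The shares were 80.2%, 51.1% and 52.1% for Poly I:C against MAM, 36.4%, 50.7% and 32.8% for Low Protein and 41.5%, 44.2% and 30.3% for Poly I:C against saline.

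With a pup or litter left out, calls ranged from 562 to 2291 in Poly I:C, from 423 to 1760 in MAM, from 515 to 1146 in Low Protein and from 1376 to 2615 between Poly I:C and MAM. Pathway genes ranged from 4 to 24, from 2 to 8, from 2 to 8 and from 7 to 25, respectively. In Poly I:C, the lowest count of all genes came without Poly I:C litter 2 and the highest without Poly I:C litter 1. The difference of Ifitm1 between Poly I:C and MAM turned from -0.44 to 0.00673 without Poly I:C litter 1 and was -0.88 without litter 2. Leaving out a litter left its group with 1 litter of 3 pups, whose spread was pooled with the other groups.

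Pups of different groups that carry the same number share only that number. Over 36 such pairs, the correlation of deviations from the group mean ranged from -0.163 to 0.376 with a median of 0.0488, and 6 of 24 pups correlated best with a pup of their own number. Within a group, the median was -0.197 for pups of the same litter and -0.19 for pups of different litters. With the number as a replicate block, 8 pathway genes passed in Low Protein, beside 9.21% of all genes. Without it there were 3, beside 7.27%, and the block moved no other count over 1.5 times. Depth limits Ifit3, Mx1 and Usp18 most, which had 17, 50.9 and 79.5 estimated reads over the 6 saline pups.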
